A study of Mus musculus with 15 samples.

Results

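The immediate early response genes described here are 32 genes, taken by name from the 28876 genes of the deposited expression table. All 32 were found, and all 32 were among the 18553 genes that reached 0.5 RPM in at least 1 library, where RPM is a gene's reads scaled to the size of its library and not to its length. They comprise the AP-1 subunits Fos, Fosb, Fosl1, Fosl2, Jun, Junb and Jund, the zinc finger factors Egr1 to Egr4, Klf4 and Klf6, the basic leucine zipper factors Atf3 and Maff, the orphan nuclear receptors Nr4a1 to Nr4a3, and Myc. The others are the phosphatases Dusp1, Dusp2 and Dusp5, the mRNA-decay factor Zfp36, Ier2, Ier3, Ier5, Btg2, Gadd45b, Rhob, Arc, and the secreted proteins Cyr61 and Ctgf.

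RNA was sequenced from the aorta-gonad-mesonephros (AGM) region of C57BL/6 mouse embryos, the site where hematopoietic stem cells first arise. At stages E9.5 and E10.5 the dorsal aorta was cut into a dorsal portion (AoD) and a ventral portion (AoV), each with the tissue around it, and at E10.5 the urogenital ridges (UGR) were collected too. The 5 groups held 3 libraries each and are called E9 AoD and E9 AoV at the earlier stage, and E10 UGR, E10 AoD and E10 AoV at the later one. Each library came from tissue of 15 to 34 embryos, pooled within 1 of 3 separate experiments, so a p-value here measures the spread between such pools. The embryos carried no allele or treatment that the labels name. The tissues were cut out whole and no cell type was sorted, so fewer cells of a type and less RNA per cell cannot be told apart. All 6 endothelial markers were present at 0.5 RPM or more in every library, with a summed level of 265.4 to 597.4 RPM. Neural tube markers were highest in E9 AoD and gut markers in E9 AoV. Depth, inferred from the value of 1 read, was between 33.75 and 48.62 M reads per library, at which 3 reads corresponded to 0.0617 to 0.0889 RPM.

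Immediate early genes are transcribed within minutes of a stimulus, without new protein synthesis, from factors that are already in the cell. Growth factors, stretch, stress and the cutting of tissue are all known to act through MAP kinases on the serum response factor, its ternary complex partners and CREB, which sit on the promoters of these genes. Many of the products are transcription factors, and others, such as the Dusp phosphatases and Zfp36, shut the same signal down.

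The 2 classical binding sites of that route were looked for in promoter windows, from 250 bases before to 50 bases after each annotated start (RefSeq, mouse build GRCm38.p6). Windows were matched for 25 of the 32 members, and there was no entry for Fosl1, Egr1, Egr3, Ier2, Myc, Ctgf and Arc. A CArG box, which the serum response factor binds, was found on either strand in windows of 3 members (12% of 25), against 1.81% of the 27025 genes with a window. The cyclic AMP response element TGACGTCA, bound by CREB, was also found in 3 members, against 2.03% of all genes. The stretches around them are shown because these are the members whose windows hold either site, with the site in capitals. A letter match is a description and says nothing about binding in these tissues. The GC content of the windows was not matched.
Dusp5, CArG boxes (chr19:53529038-53529107, plus strand): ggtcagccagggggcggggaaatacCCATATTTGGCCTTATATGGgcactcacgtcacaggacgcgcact
Egr2, CArG box (chr10:67537772-67537831, plus strand): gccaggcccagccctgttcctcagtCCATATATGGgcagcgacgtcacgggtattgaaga
Egr2, CArG box at another start (chr10:67537469-67537528, plus strand): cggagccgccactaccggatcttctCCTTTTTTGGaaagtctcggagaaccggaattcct
Zfp36, CArG box (chr7:28379252-28379311, minus strand): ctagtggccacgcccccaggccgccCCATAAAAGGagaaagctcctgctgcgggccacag
Btg2, cyclic AMP response element (chr1:134079289-134079346, minus strand): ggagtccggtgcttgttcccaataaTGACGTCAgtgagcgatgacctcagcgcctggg
Dusp1, cyclic AMP response element (chr17:26508583-26508640, minus strand): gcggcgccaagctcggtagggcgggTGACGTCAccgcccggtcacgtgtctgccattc
Maff, cyclic AMP response element (chr15:79347466-79347519, plus strand): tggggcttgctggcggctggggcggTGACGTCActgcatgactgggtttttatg

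The EGR site GCGNGGGCG, itself read by the products of Egr1 to Egr4, was found in 10 of the 25 members with a window (40.0%), against 6.27% of all genes. The 10 were Fosb, Fosl2, Nr4a1, Nr4a2, Dusp2, Zfp36, Klf4, Btg2, Maff and Gadd45b. The letters TATAAA stood in 5 members (20.0% against 15.7%), Fos, Junb, Nr4a2, Cyr61 and Gadd45b. The AP-1 letters TGANTCA stood in none of the 25, against 8.97% of all genes. All 5 searches covered both strands, and no member with a CArG box also held the TATAAA letters, which such a box can include.

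The largest difference in these genes lay between the stages. The stages came from different embryos, so stage and the handling of the tissue cannot be told apart. In the ventral tissue 25 of the 32 members were called higher at E10.5 than at E9.5 and none lower, where a call required an adjusted p below 0.05 (limma, Benjamini-Hochberg over all tested genes) and at least a 2-fold difference. Of all tested genes, 6.04% were called higher and 4.99% lower in that comparison. In the dorsal tissue, 24 members were called higher in E10 AoD than in E9 AoD and none lower, against 8.60% and 4.0% of all tested genes. The median log2 fold change of the members was 1.73 in AoV and 1.78 in AoD, and that of all tested genes was 0.00 in both. By adjusted p alone, 30 members were higher and 1 lower in AoV, and 28 were higher and 1 lower in AoD, where 23.6% and 30.0% of tested genes were higher and 22.4% and 27.9% lower. In 30 members every E10 AoV library exceeded every E9 AoV library (27.7% of tested genes did so), and in 28 members every E10 AoD library exceeded every E9 AoD library (31.3%). Without the E9 libraries numbered 1, which were the highest of their groups for most members, 24 members were called in AoV and 25 in AoD.

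**Figure D1:**
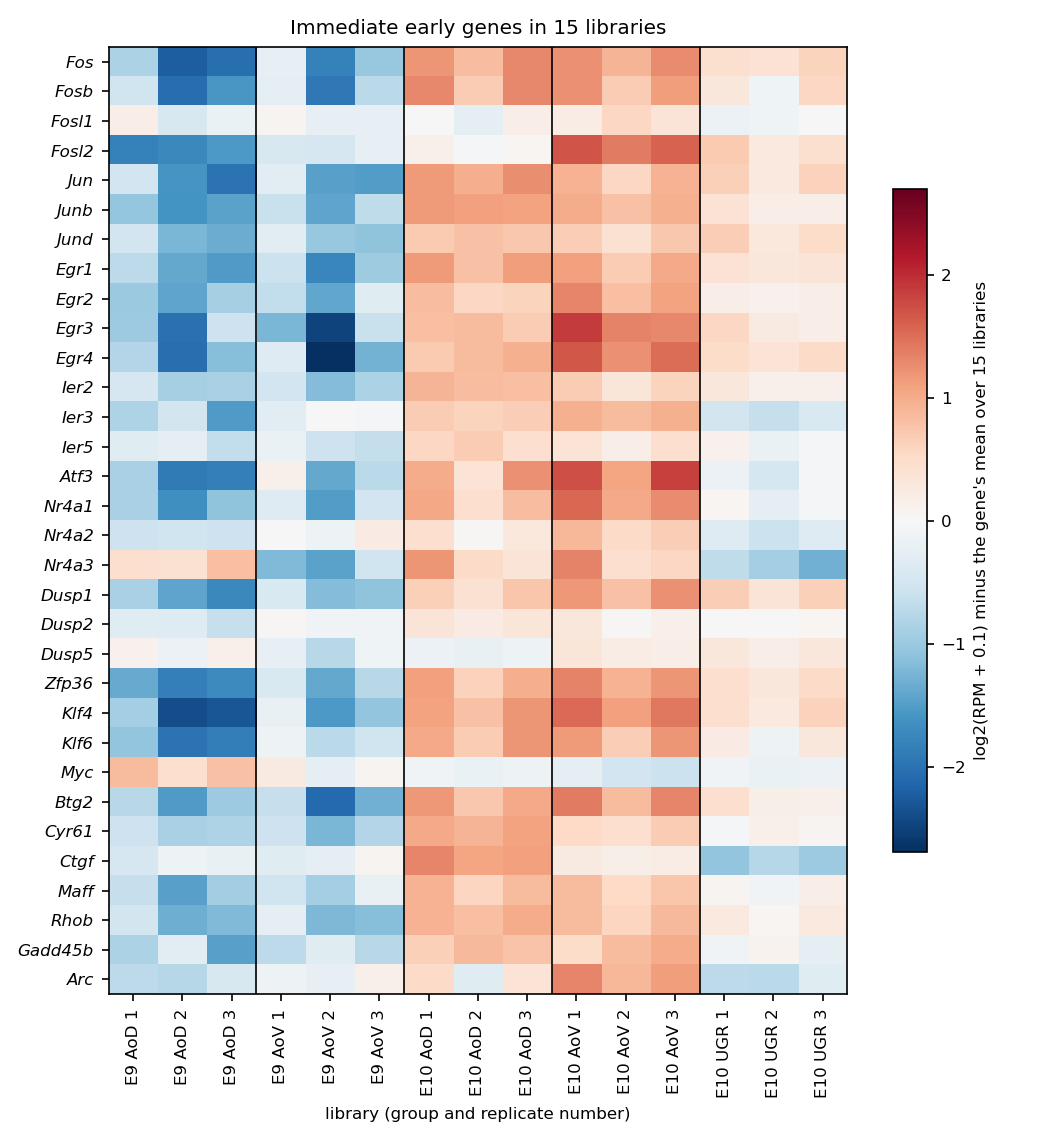
Heat map of the 32 members (rows) in the 15 libraries (columns, by group and replicate number), where colour gives log2(RPM + 0.1) minus the mean of that gene over the 15 libraries. Most rows are blue in the 6 E9 libraries and red in the 6 E10 aorta libraries, while Myc runs the other way and Dusp5 varies little.

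Fos (ENSMUSG00000021250, chromosome 12 from 86814840 to 86818223 on NCBIM37), the partner that Jun proteins need to form the most active AP-1 dimers, was at 243, 93.7 and 107 RPM in the E9 AoD libraries numbered 1 to 3. It was at 375, 123 and 215 RPM in E9 AoV. At E10.5 it was at 999, 785 and 1080 RPM in AoD, at 1030, 830 and 1060 RPM in AoV, and at 591, 575 and 666 RPM in UGR. No E9 library reached the level of any E10 library, and the 3 UGR libraries lay between the E9 and the E10 aorta libraries. The log2 fold change with stage was 2.81 ± 0.35 (SE) in AoD (adjusted p = 7.66e-06) and 2.17 ± 0.35 in AoV (adjusted p = 0.000137). Fosb, a second Fos family member, had E9 values of 71.1 to 251 RPM and E10 aorta values of 473 to 726 RPM, with log2 fold changes of 2.47 and 1.98 in AoD and AoV.

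Jun (ENSMUSG00000052684, chromosome 4 from 94715725 to 94718913), the AP-1 subunit that can also pair with itself, was at 484, 231 and 173 RPM in E9 AoD and at 564, 252 and 245 RPM in E9 AoV. At E10.5 it was at 1530, 1360 and 1650 RPM in AoD, at 1330, 1020 and 1330 RPM in AoV and at 1080, 834 and 1070 RPM in UGR. The E9 library numbered 1 was the highest in both tissues, and it still lay below every E10 library. Jun rose by a log2 fold change of 2.49 ± 0.33 in AoD (adjusted p = 1.45e-05) and 1.90 ± 0.33 in AoV (adjusted p = 0.000274). Junb and Jund, which compete with Jun for the same partners, rose too, Junb by 2.48 in AoD and 1.82 in AoV and Jund by 1.77 and 1.39. Jun and Jund each share exon sequence with a gene on the other strand (BC042782 and Gm11175), and whether reads were counted by strand was not stated.

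The remaining AP-1 members stood apart from these. Fosl2 (ENSMUSG00000029135, chromosome 5 from 32438845 to 32460204), a Fos-related factor without the strong activation domain of Fos, was far lower in level and tighter between replicates than Fos and Jun. It was at 2.56, 2.71 and 3.12 RPM in E9 AoD, at 6.93, 6.75 and 8.03 RPM in E9 AoV and at 10.2, 8.98 and 9.73 RPM in E10 AoD. It reached 15.2, 11.3 and 12.7 RPM in E10 UGR and 30.4, 24.9 and 28.2 RPM in E10 AoV. None of the 5 groups overlapped with another, so Fosl2 was ordered by stage and by position. It rose with stage by 1.75 ± 0.12 in AoD (adjusted p = 1.4e-08) and 1.93 ± 0.11 in AoV (adjusted p = 7.63e-09). Fosl1 lay between 1.29 and 2.66 RPM in all 15 libraries. Its log2 fold change was 0.49 in AoV (adjusted p = 0.0233) and 0.13 in AoD (adjusted p = 0.526), and its exons overlap those of Ccdc85b on the other strand.

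**Figure D2:**
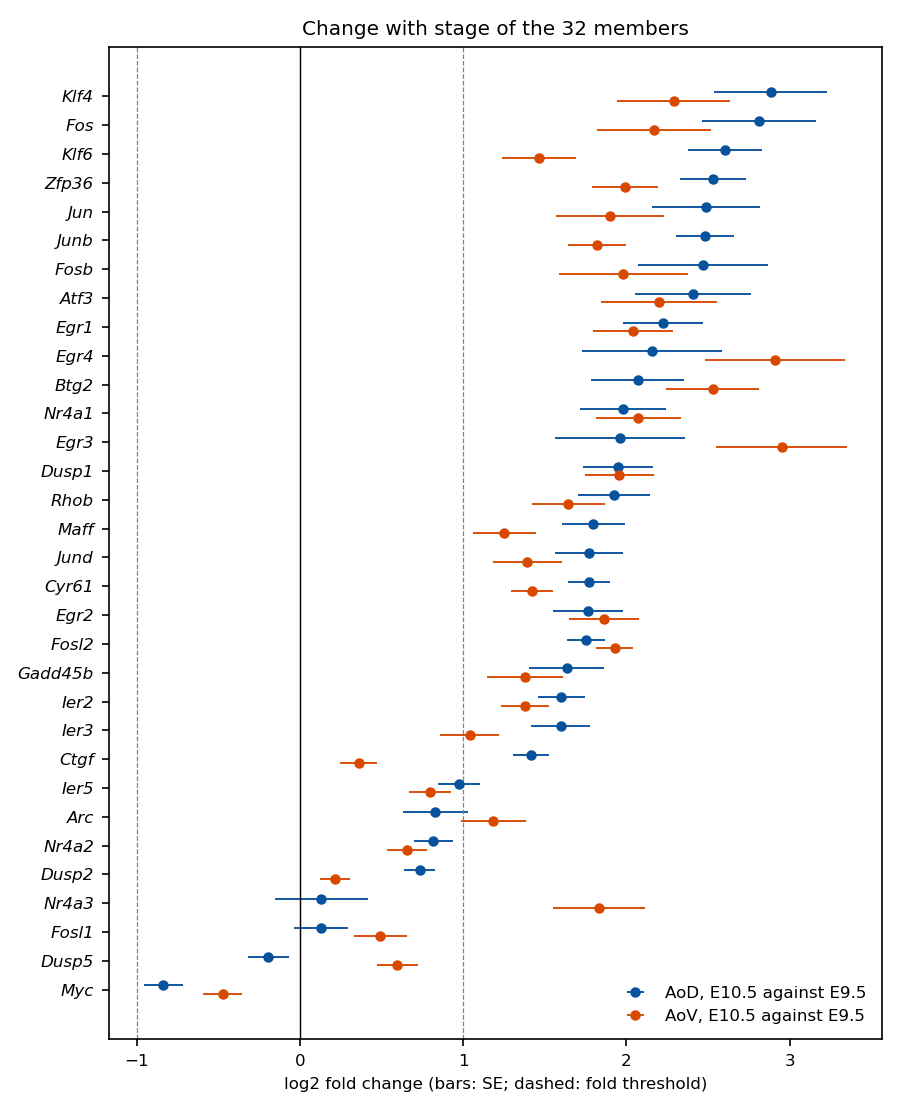
Log2 fold change from E9.5 to E10.5 (horizontal axis, on the log2(RPM + 0.1) scale) of each member in AoD (blue) and AoV (orange), with bars for the SE and dashed lines at the fold threshold. All members but Myc and, in AoD, Dusp5 lie to the right of 0, and Nr4a3, Ctgf and Klf6 show the widest gaps between the tissues, beside Egr3, whose SEs are wide.

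The Egr family rose as a group. Egr1, a zinc finger factor that many growth factors induce, was at 278, 172 and 157 RPM in E9 AoD and at 300.0, 133 and 231 RPM in E9 AoV. At the later stage its AoD libraries held 993, 780 and 987 RPM, its AoV libraries 967, 729 and 915 RPM and its UGR libraries 589, 557 and 573 RPM. The 6 E9 libraries, the 3 UGR libraries and the 6 E10 aorta libraries formed 3 ranges that did not overlap. Egr1 rose by 2.22 ± 0.25 in AoD (adjusted p = 2.4e-06) and 2.04 ± 0.25 in AoV (adjusted p = 8.68e-06). Egr2, known for its part in hindbrain and Schwann cell development, rose by 1.77 in AoD and 1.86 in AoV from E9 levels of 2.63 to 5.73 RPM.

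Egr3 and Egr4, which act downstream of similar signals in neurons and lymphocytes, were the scarcest of the family and lay at 1.35 RPM or lower in every E9 library. Egr4 was at 0.713, 0.242 and 0.534 RPM in E9 AoD and at 1.0, 0.116 and 0.475 RPM in E9 AoV, where the lowest library was close to the value of 3 reads. It was at 2.18 to 2.63 RPM in E10 AoD and 3.17 to 4.36 RPM in E10 AoV, with no overlap between the stages. The log2 fold changes of Egr4 were 2.16 ± 0.43 in AoD and 2.91 ± 0.43 in AoV, and became 1.2 and 1.68 with a pseudocount of 1 RPM in place of 0.1. Without the E9 AoV library numbered 2, the AoV value of Egr4 was 2.28. For Egr3 the log2 fold changes were 1.96 in AoD and 2.95 in AoV, and 1.28 and 2.0 with the larger pseudocount. Both genes stayed called in these settings.

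Klf4 (ENSMUSG00000003032, chromosome 4 from 55540013 to 55545347), a Krüppel-like factor of endothelium and epithelium and one of the reprogramming factors, had the largest rise of any member in AoD. Its E9 values were 33.2, 11.8 and 12.6 RPM in AoD and 54.4, 21.4 and 29.7 RPM in AoV. Its E10 values were 132, 108 and 142 RPM in AoD and 181, 135 and 167 RPM in AoV. In E10 UGR it was at 85.9, 74.7 and 95.8 RPM, again between the stages of the aorta with no overlap. The log2 fold change was 2.89 ± 0.35 in AoD (adjusted p = 5.34e-06) and 2.29 ± 0.35 in AoV (adjusted p = 7.65e-05). Klf6, a related factor induced by vascular injury, rose by 2.61 in AoD and by 1.46 in AoV.

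Atf3 (ENSMUSG00000026628), a factor of the cellular stress response, was at 35, 16.9 and 17.7 RPM in E9 AoD and at 70.5, 24.6 and 38.6 RPM in E9 AoV. At E10.5 it was at 127, 83.1 and 151 RPM in AoD, at 213, 133 and 230 RPM in AoV and at 56.9, 46.0 and 62.7 RPM in UGR. The stages did not overlap within AoD or within AoV, but the highest E9 AoV library exceeded all 3 UGR libraries. Atf3 rose by 2.41 ± 0.36 in AoD (adjusted p = 4.03e-05) and 2.20 ± 0.36 in AoV (adjusted p = 0.000143). Maff, a small Maf protein that lacks an activation domain, rose by 1.80 and 1.25.

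Of the orphan nuclear receptors, Nr4a1 rose in both tissues, by 1.98 ± 0.26 in AoD and 2.07 ± 0.26 in AoV (adjusted p = 1.38e-05 and 1.37e-05). Its E9 libraries held 12.5 to 30.8 RPM and its E10 aorta libraries 54.1 to 116 RPM. Nr4a2 rose by 0.82 in AoD (adjusted p = 4.09e-05) and 0.66 in AoV (adjusted p = 0.00044), below the fold threshold. Nr4a3 (ENSMUSG00000028341, chromosome 4 from 48058025 to 48099319) differed between the tissues. It was at 3.42, 3.33 and 4.47 RPM in E9 AoD and at 5.82, 3.61 and 3.20 RPM in E10 AoD, ranges that overlapped. It was at 1.03, 0.858 and 1.69 RPM in E9 AoV and at 6.43, 3.43 and 3.70 RPM in E10 AoV, ranges that did not. The log2 fold change with stage was 0.13 ± 0.28 in AoD (adjusted p = 0.715) and 1.83 ± 0.28 in AoV (adjusted p = 9.68e-05).

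The genes that damp the signal followed. Dusp1, a nuclear phosphatase of p38 and JNK, was at 71.2, 48.9 and 38.9 RPM in E9 AoD and at 98.0, 57.8 and 61.5 RPM in E9 AoV. The later AoD libraries held 205, 174 and 220 RPM and the later AoV libraries 295, 227 and 306 RPM. The stages did not overlap in either tissue, and the rise was 1.95 ± 0.21 in AoD (adjusted p = 2.17e-06) and 1.96 ± 0.21 in AoV (adjusted p = 3.19e-06). Zfp36, which destabilises AU-rich mRNAs, rose by 2.53 ± 0.20 in AoD and 1.99 ± 0.20 in AoV. The ERK-directed phosphatases did less. Dusp2 rose by 0.73 in AoD (adjusted p = 1.1e-05) and had a log2 fold change of 0.21 in AoV (adjusted p = 0.0782). Dusp5 rose by 0.60 in AoV (adjusted p = 0.00125) and had a log2 fold change of -0.19 in AoD (adjusted p = 0.20). All 15 Dusp5 libraries lay between 15.3 and 32.3 RPM. Of the members with a CArG box in their windows, Egr2 and Zfp36 were called in both tissues and Dusp5 in neither. The 3 with a cyclic AMP response element (Btg2, Dusp1 and Maff) were called in both. Of all 32 members, 25 were called higher in AoV and 24 in AoD, so no link between site and call can be read from this.

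Btg2, an antiproliferative p53 target, rose by 2.07 ± 0.29 in AoD and 2.53 ± 0.29 in AoV, from E9 libraries of 18.3 to 50.6 RPM to E10 aorta libraries of 130 to 208 RPM. Rhob, a small GTPase, rose by 1.92 in AoD and 1.64 in AoV, and Gadd45b, a stress sensor upstream of p38, by 1.63 and 1.38. Ier2 rose by 1.60 and 1.38, and Ier3 by 1.60 and 1.04. Ier5 rose by 0.97 and 0.80, under the fold threshold in both tissues. Arc, best known as a synaptic plasticity gene, rose by 0.83 in AoD and 1.19 in AoV.

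Cyr61 and Ctgf are matricellular proteins and targets of YAP and of the serum response factor. Cyr61 went from between 146 and 182 RPM to between 510 and 573 RPM in AoD, and from between 114 and 181 RPM to between 368 and 431 RPM in AoV. It rose by 1.77 ± 0.13 in AoD (adjusted p = 3.97e-08) and 1.42 ± 0.13 in AoV (adjusted p = 5.39e-07). Ctgf (ENSMUSG00000019997, chromosome 10 from 24315248 to 24318489) was at 18.2, 22.8 and 21.9 RPM in E9 AoD and at 62.0, 52.3 and 53.9 RPM in E10 AoD. In AoV it was at 20.0, 21.0 and 26.5 RPM at E9.5, at 29.4, 28.0 and 28.7 RPM at E10.5 and at 12, 14.7 and 12.6 RPM in E10 UGR. The 3 E10 AoD libraries were the highest of all 15 and the 3 UGR libraries the lowest. Ctgf rose by 1.42 ± 0.11 in AoD (adjusted p = 7.55e-08) and by 0.36 ± 0.11 in AoV (adjusted p = 0.0157), and its exons overlap those of Gm15270 on the other strand.

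Myc, which drives growth and proliferation, was the only member that fell with stage. It was at 96.1, 73.3 and 92.6 RPM in E9 AoD and at 49.9, 47.2 and 48.6 RPM in E10 AoD, with no overlap. In AoV it was at 63.1, 44.5 and 56.4 RPM at E9.5 and at 44.9, 37.0 and 35.5 RPM at E10.5, ranges that overlapped. The log2 fold change was -0.84 ± 0.12 in AoD (adjusted p = 3.39e-05) and -0.47 ± 0.12 in AoV (adjusted p = 0.00507), neither past the fold threshold.

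**Figure D3:**
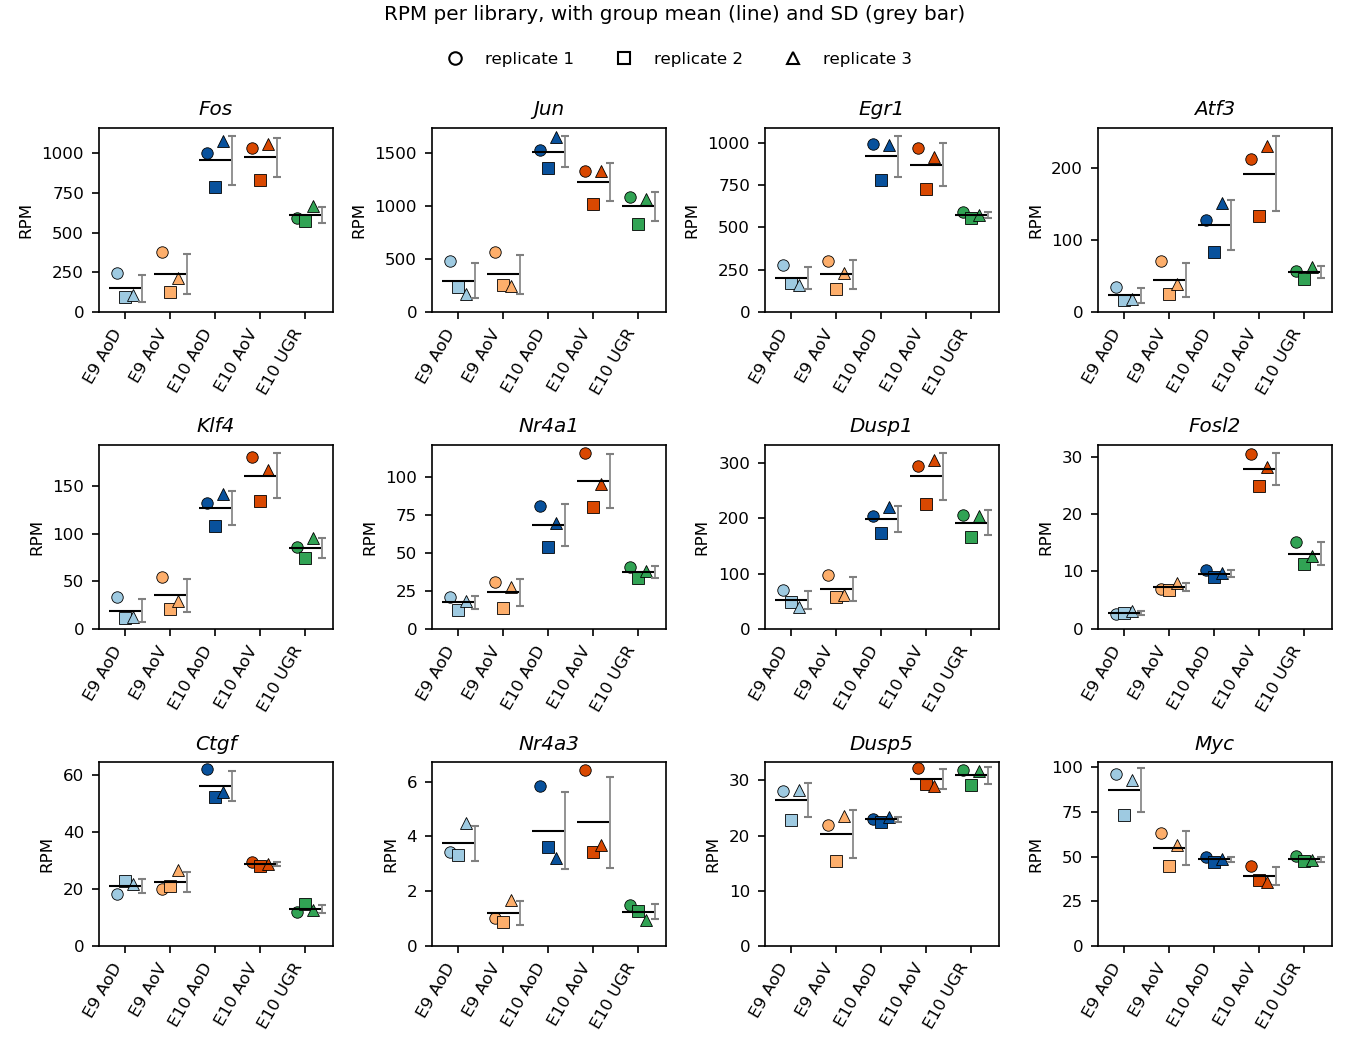
RPM of 12 members in every library (points, shaped by replicate number) by group, with the group mean as a line and the SD (n = 3) as a grey bar on axes that start at 0. Fos, Jun, Egr1, Atf3, Klf4, Nr4a1 and Dusp1 show the stage difference, Fosl2, Ctgf and Nr4a3 differ by position as well, and Myc is lower at E10.5.

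Read per kilobase of exon, which allows genes to be set beside each other, the most abundant members in the aorta at E10.5 were Jun (mean of 474.5 RPM per kilobase in AoD and 384.7 in AoV), Fos (405.9 and 413.8) and Egr1 (296.8 and 280.8). At E9.5 Jun (92.8 in AoD and 110.9 in AoV), Cyr61 (78.7 and 74.0), Jund (75.9 and 89.4), Egr1 (65.3 and 71.4) and Fos (62.9 and 101.0) led. The least abundant in E10 AoD was Nr4a3, at a mean of 0.703 RPM per kilobase. Jun, Fos and Egr1 were thus among the 5 most abundant members of the aorta at both stages.

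Other genes of the pathway were read from further lists. Of 26 other immediate early genes, 6 were called higher and 1 lower in AoV with stage (median log2 fold change 0.58), and 9 higher and none lower in AoD (median 0.65). The largest calls were Klf2, the shear-responsive endothelial factor (2.23 in AoV and 3.26 in AoD), Npas4 (1.37) and the prostaglandin synthase Ptgs2 (-1.63) in AoV, and Socs3 (1.94) and Bhlhe40 (1.84) in AoD. The 22 upstream kinases and transcription factors (among them Srf, the Elk factors, Creb1 and the MAP kinases) had medians of 0.00 and -0.05. None of the 22 was called in AoV, where 6 were higher and 3 lower by adjusted p alone (limma), and in AoD 1 was called higher, Elk3 (1.05). Of 11 feedback and corepressor genes, 1 was called higher in each tissue, Nab2, the corepressor of Egr proteins (1.11 in AoV and 1.21 in AoD), and none lower. Of 11 tested cytoskeletal and YAP targets, 2 were called higher in AoV (Cnn1, 1.5, and Axl, 1.10) and 5 in AoD (the largest Acta2, 3.10, Cnn1, 2.95, and Myl9, 2.30), with none lower. Of 12 heat shock genes, 2 were called higher in AoV and 3 in AoD and none lower, with 5 higher and 5 lower by adjusted p alone in each tissue. Those called were Hspa1a (1.93 in AoV and 1.74 in AoD), its near-identical copy Hspa1b (1.68 and 1.46), whose reads cannot be told apart with certainty, and Hspb1 in AoD (1.68).

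Marker RNAs of other cell types also moved with stage. Of the 6 macrophage markers, 5 were called higher in each tissue, and their sum was between 5.05 and 8.90 RPM in E9 AoD, 50.96 and 58.19 RPM in E10 AoD, 10.57 and 13.2 RPM in E9 AoV, and 39.75 and 46.06 RPM in E10 AoV. Aif1 alone of them was listed at 0, in 1 E9 AoD library. Of 5 smooth muscle markers, 4 were called higher in AoD and 2 in AoV, with sums of 149.9 to 238.6 RPM in the E9 AoD libraries, 520.0 to 528.0 RPM in the E9 AoV libraries and 682.4 to 861.8 RPM in the later aorta. Of 6 hematopoietic markers, 4 were called higher in AoD and 3 in AoV. Of 6 endothelial markers, 3 were called higher in AoD and none in AoV, where 2 were higher and 1 lower by adjusted p alone. All 5 gonad and coelomic epithelium markers were called higher in AoV, with sums that went from 140.3 to 151.2 RPM up to 672.0 to 712.2 RPM, and 4 of 5 germ cell markers were too. In AoD 1 of the 5 gonad markers was called higher and 1 lower, and no germ cell marker passed in either direction. Of 6 sympathoadrenal and neural crest markers, 5 were called higher in AoD and 4 in AoV. Of 5 nephric markers, 2 were called higher in AoV, and 1 higher and 4 lower in AoD. Of 5 neural tube markers, 4 were called lower in each tissue, with sums that went from 118.1 to 246.6 RPM down to 22.84 to 41.91 RPM in AoD. Of 5 notochord and sclerotome markers, 4 were called higher and 1 lower in AoD, and 3 lower in AoV. Of 4 myotome markers, 1 was called higher and 1 lower in AoD, and 2 higher and 1 lower in AoV. All 6 gut endoderm and liver markers were called lower in AoV, with sums that went from 450.4 to 670.6 RPM down to 1.56 to 2.54 RPM. The part of these cells in the rise of the members was not tested. In E10 UGR, 17 members lay above all E9 libraries and below all E10 aorta libraries, an order seen in 1.14% of tested genes.

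Between the ventral and the dorsal aorta at E10.5 few members were called. The fit shared 1 estimate of the spread over all 5 groups, and the members spread more at E9.5. Their median SD on the log2 scale was 0.402 and 0.432 in E9 AoD and E9 AoV, against 0.143 and 0.199 in E10 AoD and E10 AoV. Tests between E10 groups, those with UGR included, thus rested partly on that wider spread, and a missing call does not show equal levels. Of the 32, 1 member, Fosl2, was called higher in AoV (1.52 ± 0.12, adjusted p = 8.42e-08), and none lower, against 5.81% and 4.29% of all tested genes. The members' median log2 fold change was 0.06, and that of all tested genes 0.02. By adjusted p alone Arc (0.92), Nr4a2 (0.43) and Dusp5 (0.39) were also higher, and Ctgf (-0.96) and Cyr61 (-0.46) were lower, so 6 of the 32 passed, where 35.5% of tested genes did. Arc was called when the E10 AoD library numbered 1 or 3 or the E10 AoV library numbered 2 was left out, and Ctgf when the E10 AoD library numbered 2 was, so that each of these 4 fits called 2 members. In 9 members every E10 AoV library exceeded every E10 AoD library, and in 6 the reverse held. The share of all tested genes with such an order was not counted, so these counts cannot be read as a trait of the members. Jun was among the 6, with a difference of -0.31 that did not pass the test (limma, adjusted p = 0.511). The libraries of Fos, Egr1, Klf6 and Rhob overlapped between E10 AoD and E10 AoV.

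At E9.5, 2 members were called higher in AoV than in AoD (8.32% of tested genes were), and 1 lower (3.47%). Fosl2 was higher by 1.34 ± 0.12 (adjusted p = 2.61e-07) and Klf6 by 1.18 ± 0.23 (adjusted p = 0.000618). Klf6 was at 111, 58.1 and 63.5 RPM in E9 AoD and at 212, 140 and 160 RPM in E9 AoV, with no overlap. Nr4a3 was lower in AoV by 1.61 on the log2 scale (adjusted p = 0.000279). The shared spread of the members had a median SD of 0.305, below their median of 0.402 in E9 AoD and 0.432 in E9 AoV. Adjusted p-values at E9.5 from the fit without a block thus rested on a narrower spread than that of the E9 libraries for many members.

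By adjusted p alone 12 of the 32 passed at E9.5, a smaller share than the 47.7% of all tested genes. Same-numbered E9 libraries moved together. Within all 3 numbers, 19 members were higher in E9 AoV (38.7% of tested genes were) and 4 were lower (33.9%), the latter being Nr4a3, Myc, Dusp5 and Egr3. With the replicate number as a block, 17 members passed the adjusted p (limma) in the fit of 15 libraries (50.9% of tested genes) and 21 in a fit of the 6 E9 libraries alone (52.8%), while 3 were called in each of these fits. Fos, higher in AoV by 0.63, 0.39 and 1.01 within numbers 1 to 3, had an adjusted p of 0.129 without the block and 0.0433 with it. Atf3 (log2 fold change 0.89) went from 0.0521 to 0.00427, Dusp1 (0.45) from 0.0961 to 0.0279, Nr4a1 (0.42) from 0.209 to 0.0131 and Maff (0.45) from 0.0667 to 0.00502. The count of calls changed with some single E9 libraries left out. It was 6 without the E9 AoD library numbered 1 and 7 without the E9 AoV library numbered 2. Of the 18553 tested genes, these fits called 2251 and 2144. Each fit kept the same-numbered library of the other tissue, which breaks the pairing. A shift shared by a number and a difference between the tissues cannot be told apart there. Fos, Klf4 and Atf3 were added in both fits, with log2 fold changes of 1.10, 1.41 and 1.23 in the first, and Zfp36 in the second only.

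Against the urogenital ridges, the aorta held more of most members at E10.5. Set against UGR, 9 members were called higher in E10 AoV and none lower (3.84% and 3.73% of tested genes), and 4 were called higher in E10 AoD and none lower (4.76% and 6.56%). These 2 comparisons share the UGR libraries. The members' median log2 fold change over UGR was 0.745 in E10 AoV and 0.67 in E10 AoD, where all tested genes had -0.047 and -0.055. By adjusted p alone 19 of the 32 differed from UGR in E10 AoV (29.1% of tested genes) and 19 in E10 AoD (39.2%). Ctgf, Nr4a3, Ier3 and Atf3 were called in both. Ctgf was higher by 2.09 ± 0.11 in E10 AoD and 1.13 ± 0.11 in E10 AoV. Ier3, at 4.50, 4.11 and 4.76 RPM in UGR, was at 10.4, 9.74 and 10.2 RPM in E10 AoD and at 12.6, 11.6 and 12.5 RPM in E10 AoV, and exceeded UGR by 1.17 and 1.44. Nr4a3, at 1.51, 1.27 and 0.957 RPM in UGR, was higher by 1.65 in AoD and 1.74 in AoV, and Atf3 by 1.09 and 1.77.

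The members called against UGR in E10 AoV alone were Arc (1.69), Nr4a1 (1.36), Egr3 (1.18), Nr4a2 (1.12) and Fosl2 (1.09). Of these, Arc, Nr4a2 and Fosl2 also passed the adjusted p in E10 AoV against E10 AoD, and Nr4a1 (adjusted p = 0.15) and Egr3 (adjusted p = 0.183) did not. Arc was at 6.25, 4.66 and 5.52 RPM in E10 AoV and at 1.48, 1.46 and 1.94 RPM in UGR, without overlap. Fosl2 was lower in E10 AoD than in UGR by 0.43 on the log2 scale (adjusted p = 0.0081), and Dusp5 likewise by 0.43 (adjusted p = 0.0136). Egr3 (adjusted p = 0.0378) and, in AoD, Atf3 (adjusted p = 0.0239) were near the threshold and lost the call in several settings, Egr3 whenever any 1 of the E10 AoV or UGR libraries was left out. Without the E10 AoD library numbered 2, 7 members were called in E10 AoD, with Arc (1.03), Nr4a1 (1.01) and Cyr61 (1.01) added. That fit called 2125 of the 18553 tested genes.

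The change with stage differed between AoV and AoD in 3 called members, which is the interaction of stage and position: 1 had the larger change in AoV (4.12% of tested genes were called so) and 2 the smaller (6.89%). Nr4a3 changed more in AoV by 1.70 ± 0.40 on the log2 scale (adjusted p = 0.00512). Klf6 changed less in AoV by 1.14 ± 0.32 (difference of -1.14, adjusted p = 0.0156) and Ctgf by 1.06 ± 0.16 (difference of -1.06, adjusted p = 0.000144). By adjusted p alone, the change of Dusp5 was larger in AoV (0.79) and that of Dusp2 smaller (-0.52). With these, 5 of the 32 passed the adjusted p, a smaller share than the 28.1% of all tested genes. The stage change of Fos differed by -0.64 ± 0.49 (adjusted p = 0.383) and that of Jun by -0.59 ± 0.47 (adjusted p = 0.396), neither of which passed the test.

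The spread between replicates was wider in most members than in other genes of like level. The median SD within groups, on the log2 scale, was 0.305 for the members and 0.118 for all tested genes. Divided by the SD that the trend across all genes gave at the same level, the median ratio was 3.07 for the members and 1.04 for all tested genes. Of the 32 members, 21 lay above the 95th percentile of this ratio and 30 above the median. Fosb (9.22), Fos (7.99), Atf3 (7.54), Klf4 (7.30), Jun (7.30) and Btg2 (6.21) had the widest spread for their level. Dusp2 (0.849) and Fosl1 (1.02) had the narrowest. Fosl2, with 1.29, was narrow among the members but above the median of all tested genes. The median ratio was 1.82 in the 26 other immediate early genes, 0.817 in the 22 upstream genes, 1.65 in the feedback genes, 2.23 in the cytoskeletal and YAP targets and 1.19 in the heat shock genes. It was 8.24 in 6 erythroid markers, globins among them, 1.70 in the endothelial, 1.71 in the macrophage and 3.04 in the smooth muscle markers. The gonad and coelomic epithelium markers (3.96, with 5 of 5 above the 95th percentile) also exceeded the members, and the ratio was 2.90 in the nephric markers (also 5 of 5) and 2.58 in the gut markers. With the replicate number as a block, the ratio of the members was 2.38, and without the E9 AoV library numbered 2 it was 2.28.

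**Figure D4:**
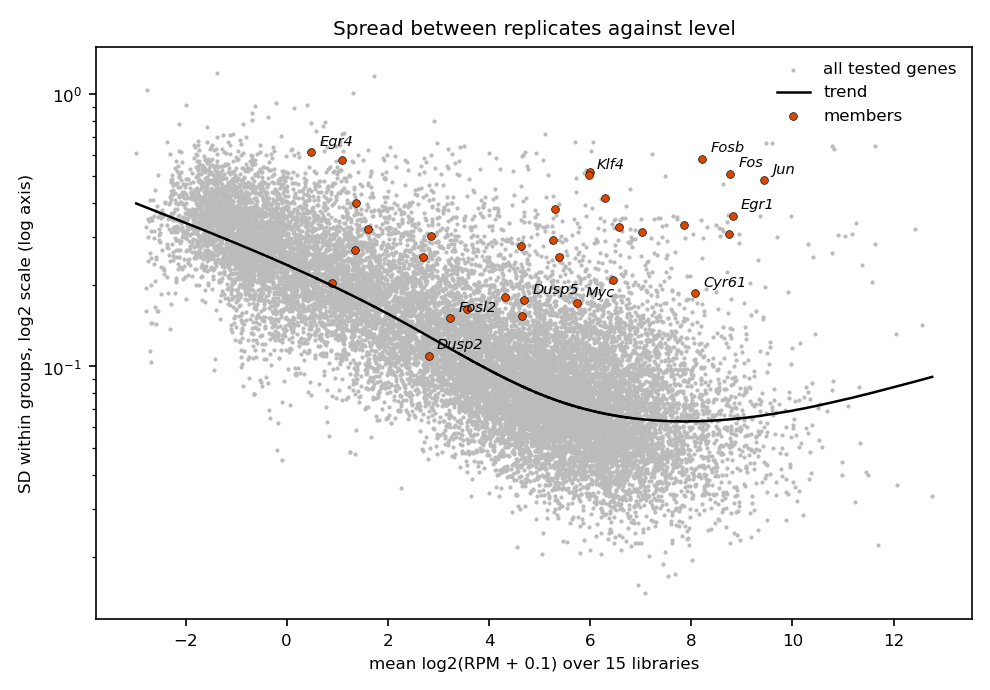
SD within groups on the log2 scale (log axis) against mean log2(RPM + 0.1) over the 15 libraries for all 18553 tested genes (grey), with the trend line and the 32 members in orange. Fosb, Fos, Jun, Klf4 and Egr1 lie high above the trend, and Dusp2 lies just under it.

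The spread was mainly that of the E9 libraries. The median SD of the members was 0.402 in E9 AoD and 0.432 in E9 AoV, against 0.143 (AoD), 0.199 (AoV) and 0.145 (UGR) at E10.5. For all tested genes it was 0.121, 0.112, 0.0988, 0.0769 and 0.0805 in the same order. The highest library of a member was a median of 1.72 times the lowest in E9 AoD and 1.73 times in E9 AoV, and 1.21, 1.3 and 1.21 times in the E10 groups. The widest single gap was that of Egr4 in E9 AoV, at 8.62 times, where the lowest library was near the value of 3 reads.

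The deviations had a direction in each library. In E9 AoD the library numbered 1 lay above the group mean by a median of 0.30 on the log2 scale over the members, and the libraries numbered 2 and 3 lay at -0.21 and -0.08. In E9 AoV the medians were 0.30, -0.37 and 0.07. At E10.5 they were smaller but ordered alike, with 0.06, -0.13 and 0.05 in AoD, 0.15, -0.20 and 0.04 in AoV and 0.05, -0.10 and 0.04 in UGR. The library numbered 2 was therefore the low one in all 5 groups, with 2 to 6 of 32 members above the group mean, and the library numbered 1 had 25 to 29. The median deviation over all tested genes was between -0.014 and 0.021 in every library, and 42.5% to 61.0% of them lay above the group mean. For 11 members (Fos, Fosb, Egr2, Atf3, Nr4a1, Zfp36, Klf4, Klf6, Maff, Rhob and Arc) the library numbered 2 was the lowest in all 5 groups, as it was for 3.22% of tested genes. For 6 (Junb, Egr1, Ier2, Nr4a1, Myc and Btg2) the library numbered 1 was the highest in all 5 groups, as it was for 0.701%.

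**Figure D5:**
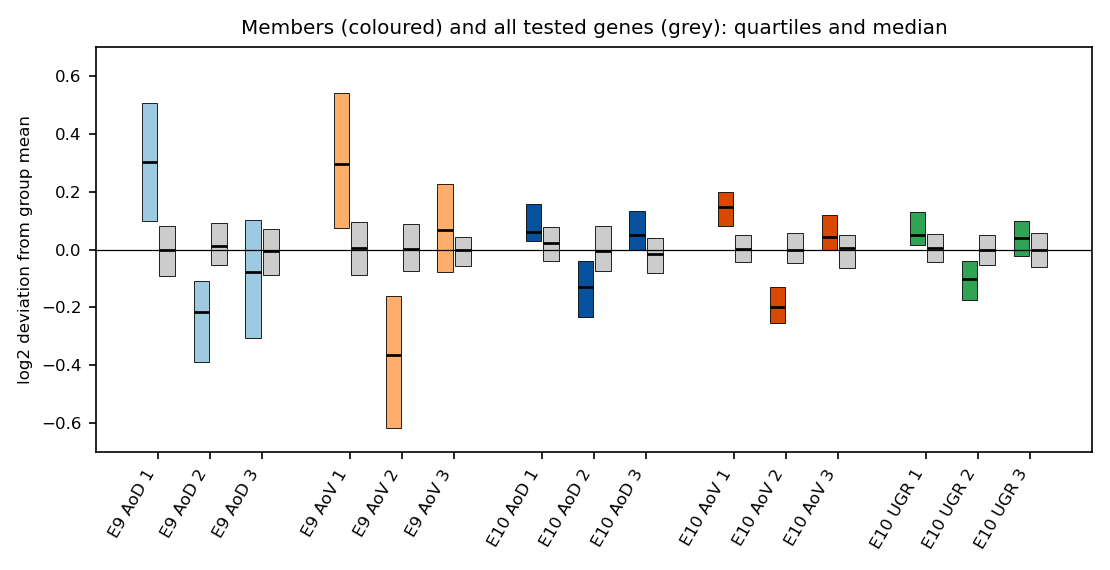
Deviation from the group mean on the log2 scale (vertical axis) in each of the 15 libraries, with bars from the first to the third quartile and a line at the median, for the members (coloured) and for all tested genes (grey). The members' bars are lowest in the library numbered 2 of every group and widest in the E9 groups, while the grey bars stay around 0.

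Other genes moved with these libraries in part. The 6 erythroid markers summed to 7857, 3474 and 4816 RPM in the E9 AoD libraries numbered 1 to 3 and to 12720, 2706 and 7678 RPM in E9 AoV, the same order as the members' median deviations in both tissues. In E9 AoV the median deviations of the sympathoadrenal, nephric, gonad and myotome markers had that order too, but not in E9 AoD. In the E10 groups the order of the erythroid sums was the opposite for numbers 1 and 2, at 8124 and 10260 RPM in AoD, 5041 and 9683 RPM in AoV and 5024 and 7906 RPM in UGR, while the members were again higher in number 1. The other immediate early genes deviated with the members at E10.5, by -0.13 in AoD, -0.14 in AoV and -0.12 in UGR in the library numbered 2. In the E9 groups their medians lay between -0.06 and 0.05. The heat shock genes deviated by -0.10, -0.06 and -0.03 in the E10 libraries numbered 2, and by 0.00 and -0.05 in the E9 ones. The upstream genes had medians between -0.02 and 0.03 in all 15 libraries. The part of red cells or of the stress response in the spread of the members was not tested.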

How the data were processed

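RNA-seq of 15 pooled tissue libraries in 5 groups of 3 was analysed. The authors aligned reads to NCBIM37 (mm9) with TopHat and Bowtie 0.12.3, summed them over Ensembl genes in GeneProf, split multi-mapped reads in proportion to unique reads, and deposited RPM, rounded to 3 significant digits and not adjusted for length. The 12 deposited columns of the authors' comparisons (DESeq log2 fold changes and adjusted p-values) were not used. Whole reads could not be recovered from the rounded values. Depth was inferred from the value of 1 read, and a level of 3 reads covers counting error only.

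From these values, log2(RPM + 0.1) was modelled in R 4.3.3 (limma 3.58.1) by group means, the intensity trend and 10 residual degrees of freedom, over genes with at least 0.5 RPM in 1 library. P-values were two-sided and adjusted by Benjamini-Hochberg over all 18553 tested genes. A call required adjusted p under 0.05 and a log2 fold change of at least 1. Fold changes on this scale understate those of low genes. The fit was tested on simulated data of 18553 genes, where for E10 AoV against E9 AoV it called 94% of 100 genes changed by 1.5 and 97% of 100 changed by 2.5 on the log2 scale, and 0 of the unchanged genes. The simulated noise was independent between genes and had the same SD in all groups. The members shared library shifts and spread more at E9.5, so these rates do not carry over to them. Per-gene spread was the residual SD divided by the SD of the trend at that level.

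Replicate numbers come from the sample titles. The titles do not say that a number marks the same experiment in all groups. Deviations of same-numbered libraries correlated over genes at 0.452, 0.347 and 0.19 between E9 AoD and E9 AoV. In every other pair of groups at least 1 correlation was 0.1 or lower. The number was therefore read as a pairing in the E9 comparison, and elsewhere a block by number served only as an alternative fit. Alternatives varied the pseudocount, filter, scaling, spread model, samples, block, fold threshold and libraries left out. Fits of the 6 E9 libraries with the block and without the E9 libraries numbered 1 were chosen after seeing the data. All 32 members are named, with library values for those the results turn on, and at most 3 called genes per comparison of any other list. Members and lists were chosen with earlier results of these data known. Of 12 cytoskeletal and YAP targets, Ajuba was not matched by name.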

Additional observations from a re-analysis of the deposited data

Results flagged for a closer look

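A change with stage that differed between AoV and AoD by the interaction test (limma, adjusted p under 0.05) was found in 5 of the 32 members, a smaller share than the 28.1% of all tested genes, and the values are signed as the change in AoV minus the change in AoD on the log2 scale. They were 1.70 for Nr4a3, 0.79 for Dusp5, -0.52 for Dusp2, -1.14 for Klf6 and -1.06 for Ctgf. Dusp5 and Dusp2 were below the fold threshold. Between AoV and AoD, Nr4a3 and Klf6 were called at E9.5. By adjusted p alone Dusp2 and Dusp5 differed at E9.5, and Ctgf and Dusp5 at E10.5.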

How the results depend on the processing

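The members' counts with stage were 25 in AoV and 24 in AoD, and 23 to 25 and 24 to 25 under every other scaling, filter, pseudocount, spread model, choice of samples and block, with single libraries left out (24 to 25 in both) and without the E9 libraries numbered 1. Demanding a change significantly over 2-fold (limma treat) left 13 in AoV and 21 in AoD with stage, 0 in E9 AoV against E9 AoD, 0 in E10 AoV against E10 UGR, 1 in E10 AoD against E10 UGR and 0 in the interaction. Of the 18553 tested genes, treat left 970 in AoV and 1025 in AoD with stage, and 1033 in E9 AoV against E9 AoD. It left 535 in E10 AoV and 1047 in E10 AoD against E10 UGR, and 636 in the interaction. With no fold threshold the counts, with the share of all tested genes, were 6 in E10 AoV against E10 AoD (35.5%), 12 at E9.5 (47.7%), 19 in E10 AoV against E10 UGR (29.1%), 19 in E10 AoD against E10 UGR (39.2%) and 5 in the interaction (28.1%). Quantile normalization gave 2 in E10 AoV against E10 AoD. With each library left out in turn, the counts ranged from 1 to 2 in E10 AoV against E10 AoD, 3 to 7 at E9.5, 7 to 11 in E10 AoV against E10 UGR, 3 to 7 in E10 AoD against E10 UGR and 2 to 3 in the interaction. The count of 7 at E9.5 came without the E9 AoV library numbered 2 (6 without the E9 AoD library numbered 1), and the 7 against UGR without the E10 AoD library numbered 2. Of all tested genes, 2144, 2251 and 2125 were called in these fits, in that order. The fits at E9.5 kept the same-numbered library of the other tissue, which breaks the pairing. The spread ratio of the members, 3.07, was 3.61 with no filter, 2.38 with the replicate block, 2.59 without the E9 libraries numbered 1, and 2.28 to 3.27 with single libraries left out, lowest without the E9 AoV library numbered 2.

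The replicate block gave 10 calls in place of 9 in E10 AoV against E10 UGR and left the number of calls in the other 6 comparisons as it was. In AoD with stage, the log2 fold change of Fosl1 turned to -0.053 under quantile normalization and to -0.014 without the E9 AoD library numbered 2 (up to 0.291 with others left out). That of Nr4a3 turned to -0.047 under quantile normalization and to -0.12 without the E10 AoD library numbered 1 (up to 0.30). Of the called members, 8 results lost the call under some setting other than treat, namely Atf3 in E10 AoD against UGR, Egr3 and Fosl2 in E10 AoV against UGR, Arc, Ier3 and Maff in AoV with stage, and Ctgf and Klf6 in the interaction. For these changes the cause was not tested. Depth limits Egr4 most, at 0.116 RPM in its lowest E9 AoV library.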
